A study of Mus musculus with 36 samples.

Results

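Nanog binding in mouse embryonic stem cells after 24 h of 2i was compared with Nanog binding in serum cells labelled GFP-high, using peaks obtained with a single lot of Nanog antibody, C01MG07. The 21893 peaks of the 24 h 2i list and the 26415 peaks of the GFP-high list on chromosomes 1 to 19 and X were merged wherever they overlapped by 1 bp or more. This gave 32607 regions, out of 84927 regions when all 14 peak lists of the study were merged in the same way. A region was called in a list when it held a peak of that list.

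Both groups were KH2 cells, an established mouse embryonic stem cell line, and each group had 1 sample and 1 list. The 24 h group was labelled as grown in 2i for 24 h, with LIF. The GFP-high group was labelled as serum, also with LIF, in a medium with 15% fetal bovine serum on irradiated mouse fibroblast feeders. The GFP reporter and the way the cells were chosen are not given in the sources used here. Names of the peaks in both lists speak of pooled replicates and a control, although the labels hold 1 sample for each, and the culture label of the 24 h sample carries another version mark (v3) than its peak names (v2). The other lists used were Nanog with lot 20100713 in standard serum, after 24 h and after 3 passages of 2i, Nanog with lot C01MG07 in TKO cells, which lack the DNA methyltransferases, after 24 h of 2i, Sox2 and H3K4me3 in serum, after 24 h and after 3 passages, and Oct4 in serum and after 24 h. The peak lists hold no expression values, so the identity of the cells could not be checked against marker genes.

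Nanog, Oct4 and Sox2 are transcription factors of the core network that keeps embryonic stem cells pluripotent, and they often occupy the same enhancers. Oct4 and Sox2 bind DNA as a pair, and Nanog is a homeodomain protein whose level varies from cell to cell in serum. 2i medium contains inhibitors of the kinases MEK and GSK3 and holds the culture in a naive state, with less variation between cells. H3K4me3 is a histone mark found mainly at active promoters. A comparison with GFP-high serum cells asks which differences between 2i and serum are still seen when the serum cells are a chosen fraction and not the whole culture.

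Most strong Nanog regions were called in both media, and the lists parted at their weak ends. Of the 32607 regions, 6275 were called only at 24 h (19.2%), 10811 only in GFP-high serum (33.2%) and 15521 in both (47.6%). With the GFP-high list shortened to its 21893 strongest peaks, 7449 regions were 24 h only, 7486 were GFP-high only and 14347 were in both. Lists of equal length give near-equal one-list counts by arithmetic, so this cannot show what list length adds to the larger GFP-high-only class. At a common minimum of the authors' −log10 q, 6458 regions were 24 h only and 10132 were GFP-high only. The shared regions made up 71.2% of the 21796 regions of the 24 h list and 58.9% of the 26332 regions of the GFP-high list. All 1000 strongest peaks of the 24 h list met a GFP-high peak, and 998 of the 1000 strongest GFP-high peaks met a 24 h peak, ranked by the authors' −log10 q. With 1 list for each medium there is no replicate error, so no difference below was tested. Intervals of shares are exact 95% binomial intervals (Clopper-Pearson) and cover counting error only. A region without a peak may still hold binding below the authors' threshold.

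Sharing was lower at weaker peaks in both lists. Each list was split by −log10 q into 10 bins of equal size. In the strongest bin, 99.4% of 24 h peaks and 99.3% of GFP-high peaks met the other list. In the fifth bin the shares were 74.4% at 24 h and 59.3% in GFP-high serum. In the weakest bin they were 42.7% (40.7 to 44.8) at 24 h and 24.1% (22.5 to 25.8) in GFP-high serum. The GFP-high list is the longer one, and the bins were not repeated at equal length, so what its length adds to this gap was not tested. Fold enrichment, the authors' ratio over control at each peak, followed the same order: its median was 8.67 in 24 h-only regions and 8.90 in GFP-high-only regions, while the shared regions had medians of 13.1 at 24 h and 15.6 in GFP-high serum. Regions of 1 list were also narrower, with median peak widths of 556 bp for 24 h only and 566 bp for GFP-high only, against 710 bp at 24 h and 740 bp in GFP-high serum for the shared regions.

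**Figure D1:**
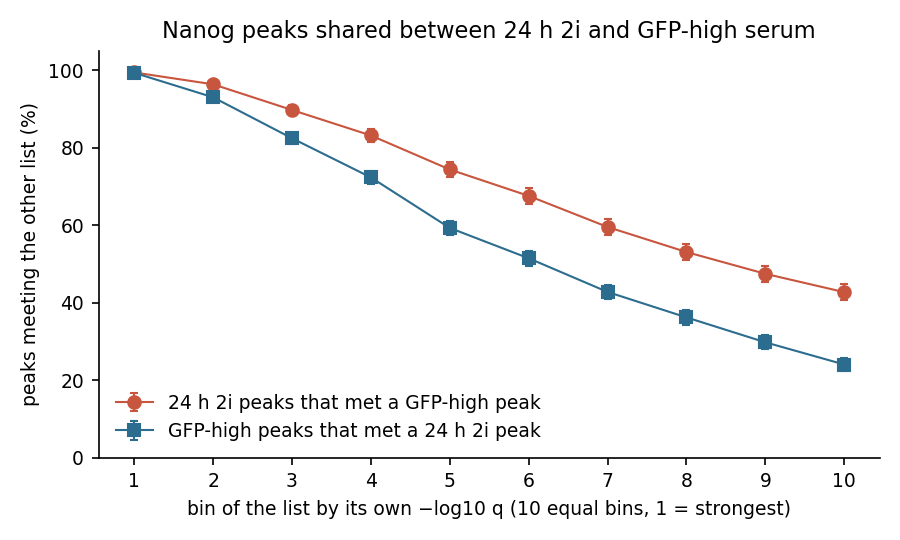
Share of Nanog peaks that overlapped a peak of the other list (%, y axis), in 10 equal bins of the list's own −log10 q (x axis, 1 is the strongest), with exact 95% binomial intervals. Both lines start above 99% and end at 42.7% for 24 h 2i and 24.1% for GFP-high serum.

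At the shared regions the position of binding hardly differed. The summits of the 2 lists lay a median of 32 bp apart, and 86.3% of them lay within 100 bp. The 5 shared regions with the highest mean rank were chr19:23168192-23170441, chr8:88917246-88918525, chr12:88658495-88659742, chr13:51001533-51003127 and chr1:72838480-72840768 (mm9). The first of them had a fold enrichment of 122 at 24 h and 178 in GFP-high serum. The chr13 region had the highest fold of each list, 240 at 24 h and 280 in GFP-high serum. All 5 regions were also called in the 4 other Nanog lists and the 3 Sox2 lists, and 4 of them in both Oct4 lists, with chr1:72838480-72840768 called for Oct4 at 24 h but not in serum.

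Of the partner lists, Sox2 of serum set the one-list classes apart most in percentage points, though thresholds differ between lists. A Sox2 peak of the serum list lay in 4.05% of 24 h-only regions and 23.2% of GFP-high-only regions, against 46.8% of shared regions and 30.7% of all regions. For the Sox2 list of 24 h the shares were 10.3% of 24 h-only regions and 18.2% of GFP-high-only regions, against 59.2% of shared regions and 36.2% of all. For the Sox2 list of 3 passages they were 6.58% (5.98 to 7.22) of 24 h-only and 7.34% (6.85 to 7.84) of GFP-high-only regions, with overlapping intervals, against 23.7% of all. With lot 20100713 the order for both Sox2 lists from 2i was the other way: the share in 24 h-only regions was above that in standard serum-only regions by 5.59 percentage points for the 24 h list and by 2.60 for the list of 3 passages. The threshold of the Sox2 lists differed, with a lowest −log10 q of 3.69 at 24 h and 17.3 in serum, so each share is to be read across the classes within one Sox2 list.

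The gap was widest at the strongest regions. Each Nanog list was also split into 4 strength groups of equal size. Among the one-list regions in the strongest group, a serum Sox2 peak lay in 10 of 177 24 h-only regions, or 5.65% (2.74 to 10.1). It lay in 300 of 417 GFP-high-only regions, or 71.9% (67.4 to 76.2), and in 52.2% of both classes together. The 24 h Sox2 list met 25.99% of those 24 h-only regions and 53.7% of those GFP-high-only regions, against 45.5% of both classes together. In the weakest group the serum Sox2 list met 3.78% of 24 h-only and 12.3% of GFP-high-only regions, against 9.07% of both classes together. The serum Sox2 share thus climbed with Nanog strength in the GFP-high-only class and stayed between 3.69% and 5.65% over the 4 groups of the 24 h-only class. The Sox2 lists from 2i did climb with Nanog strength in the 24 h-only class. From the weakest to the strongest group the share rose from 8.03% to 25.99% for the 24 h list, against 9.43% to 45.5% in both classes together. For the list of 3 passages it rose from 4.25% to 29.9%, against 4.14% to 24.9% in both classes together. For the Sox2 list of 3 passages the order in the strongest group was the other way, with 29.9% (23.3 to 37.3) of 24 h-only regions and 22.8% (18.8 to 27.1) of GFP-high-only regions.

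Peaks of the 2 Oct4 lists were rare in both one-list classes. These lists are short and have a high threshold. Their lowest −log10 q was 85.9 at 24 h (7820 peaks) and 86.4 in serum (5011 peaks). Weaker Oct4 binding is thus not counted, and each share is to be read across the classes within one list. The Oct4 list of 24 h met 6.10% of 24 h-only regions and 7.39% of GFP-high-only regions, against 35.2% of shared regions and 20.4% of all. The Oct4 list of serum met 1.99% of 24 h-only regions and 5.22% of GFP-high-only regions, against 23.0% of shared regions and 13.1% of all. With the 24 h lists of both factors, Oct4 and Sox2 peaks were both present in 2.77% of 24 h-only regions and 4.93% of GFP-high-only regions. The shares were 31.7% of shared regions and 17.2% of all. Neither was present in 86.3% of 24 h-only regions and 79.3% of GFP-high-only regions, against 37.3% of shared regions and 60.7% of all.

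H3K4me3 was infrequent everywhere, so most Nanog regions of each class lay outside H3K4me3 peaks. The H3K4me3 list of 24 h met 3.28% of 24 h-only and 5.83% of GFP-high-only regions (all regions, 5.15%), that of serum 4.22% of 24 h-only and 7.58% of GFP-high-only regions (all, 6.43%), and that of 3 passages 5.42% of 24 h-only and 7.27% of GFP-high-only regions (all, 7.47%). The median distance to the nearest serum H3K4me3 peak was 39.5 kb for 24 h-only regions, 45.4 kb for GFP-high-only regions and 44.5 kb for shared ones. No Oct4, Sox2 or H3K4me3 peak of serum or 24 h was found in 80.5% of 24 h-only regions and 62.8% of GFP-high-only regions. The shares were 29.7% of shared regions and 50.4% of all.

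**Figure D2:**
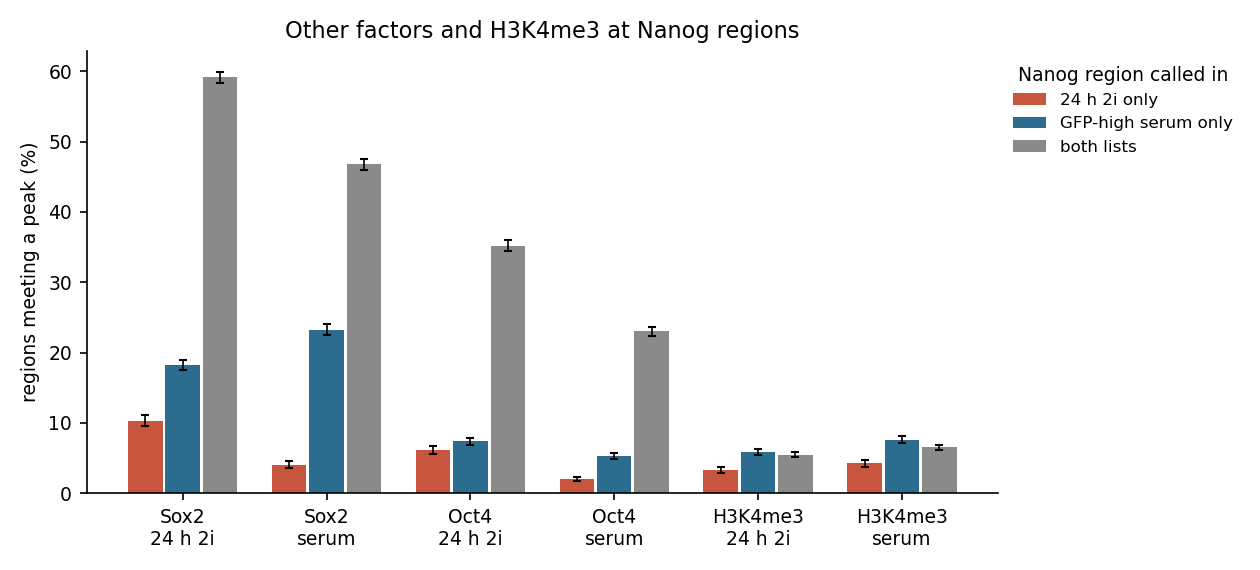
Share of Nanog regions that held a peak of Sox2, Oct4 or H3K4me3 (%, y axis) for each partner list (x axis), in regions called at 24 h 2i only, in GFP-high serum only and in both, with exact 95% binomial intervals. The 24 h-only bars are the lowest of the 3 for every partner list shown, and the widest gap to the GFP-high-only bar is for Sox2 in serum, 4.05% against 23.2%.

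Summit distances were taken only in regions that overlapped a partner peak, so short distances follow in part from that choice. The median distance from the Nanog summit to the 24 h Sox2 summit was 44 bp in 24 h-only regions, 45 bp in GFP-high-only regions and 38 bp in shared regions. For the 24 h Oct4 list the medians were 57 bp, 54 bp and 40 bp in the same order of classes. Its 90th percentiles were 441 bp, 233 bp and 136 bp. Regions called only at 24 h were somewhat nearer to a shared region than those of GFP-high serum alone: the median distance was 34.0 kb for 24 h-only and 43.6 kb for GFP-high-only regions, and 23.4% of 24 h-only and 19.9% of GFP-high-only regions lay within 10 kb of one.

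The lists made with lot 20100713 show the same regions in standard serum and in 2i. A peak in standard serum was found in 20.02% of 24 h-only regions and 48.5% of GFP-high-only regions, against 56.6% of all regions. A peak at 24 h of 2i was found in 65.0% of 24 h-only regions and 60.3% of GFP-high-only regions (all, 76.4%). A peak at 3 passages was found in 71.9% of 24 h-only and 50.7% of GFP-high-only regions (all, 77%). In the TKO list, the only other list of lot C01MG07 and also made at 24 h of 2i, a peak was found in 57.0% of 24 h-only regions and 25.3% of GFP-high-only regions (all, 54.3%). Most GFP-high-only regions were therefore called at 24 h of 2i with the other lot, while they were called less often than 24 h-only regions in each of the 3 other lists from 2i.

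**Figure D3:**
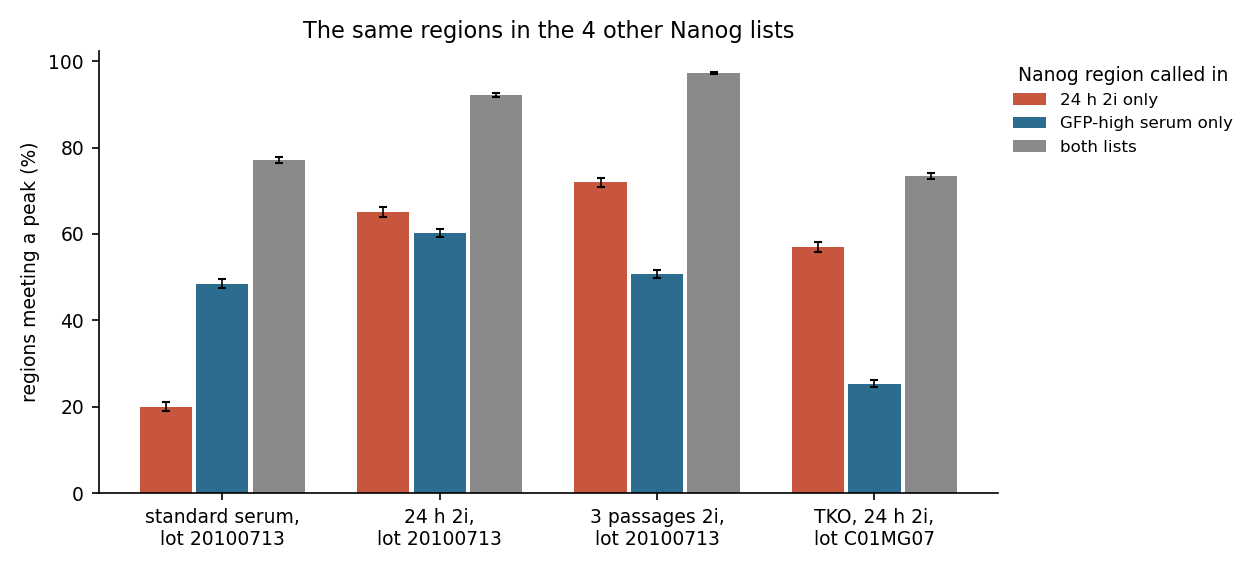
Share of the regions that held a peak in the other 4 Nanog lists (%, y axis; lists on the x axis), in regions called at 24 h 2i only, in GFP-high serum only and in both, with exact 95% binomial intervals. The 24 h-only class is below the GFP-high-only class in standard serum, 20.02% against 48.5%, and above it in the 3 lists from 2i.

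A 2i direction held across both lots for 2536 of the 6275 24 h-only regions, or 40.4% (39.2 to 41.6): they were called at 24 h and at 3 passages with lot 20100713 and not in standard serum. Among all regions 19% had that pattern. The opposite direction held for 758 of the 10811 GFP-high-only regions, or 7.01% (6.54 to 7.51), which were called in standard serum and in neither 2i list of lot 20100713. Among all regions 2.56% had it. The length of the lists enters these shares, since the 24 h list of lot 20100713 held 41729 peaks and its standard serum list 25513. A further 3349 GFP-high-only regions (31.0%) were called in all 3 lists of lot 20100713, and 2684 (24.8%) in none.

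Among the regions with the same direction in both lots, serum Sox2 peaks lay more often on the serum side and 24 h Sox2 peaks more often on the 2i side. A serum Sox2 peak lay in 45 of the 2536 regions of 2i direction, or 1.77% (1.30 to 2.37), and in 205 of the 758 regions of serum direction, or 27.04% (23.9 to 30.4), against 30.7% of all regions. For the 24 h Sox2 list the shares were 11.6% (10.4 to 12.9) of the regions of 2i direction and 5.67% (4.14 to 7.57) of the regions of serum direction, against 36.2% of all. Oct4 at 24 h lay in 5.76% of the regions of 2i direction and 2.90% of those of serum direction, against 20.4% of all. Oct4 in serum lay in 0.868% of the regions of 2i direction and 5.67% of those of serum direction, against 13.1% of all. Both sets were thus below the share over all regions for each of these Sox2 and Oct4 lists. The TKO list met 69.8% of the regions of 2i direction and 7.12% of those of serum direction, against 54.3% of all.

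The strongest 24 h-only regions with a 2i direction in both lots were chr1:87544287-87544849, chr16:92541164-92541730, chr1:156841572-156842481, chr8:64156126-64157039 and chr14:86548740-86549375. Their folds at 24 h were 48.7, 48.3, 43.1, 39.96 and 38.6. The chr8 region had a fold of 32.3 at 3 passages with lot 20100713 and 123 in TKO cells, and weak Sox2 peaks at 24 h (fold 4.82) and at 3 passages (6.44). The chr14 region had an Oct4 peak at 24 h with a fold of 39.0 and no Oct4 peak in serum. None of these 5 regions held an H3K4me3 peak or a serum Sox2 peak.

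The strongest GFP-high-only regions with a serum direction in both lots had lower folds. They were chr9:27364024-27364718, chr12:49135924-49136727, chr13:62812392-62813015, chr7:11824948-11825476 and chr1:65259705-65260242, with folds of 30.7, 27.8, 25.9, 25.2 and 25.1 in GFP-high serum. The chr1 region was stronger in standard serum, with a fold of 38.1. A serum Sox2 peak lay in the chr9, chr7 and chr1 regions, with folds of 10.3, 10.2 and 13.5, and none of the 5 held a Sox2 peak from 2i, an Oct4 peak or an H3K4me3 peak.

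Several of the strongest one-list regions had peaks in both media with the other lot. Of the 10 24 h-only regions with the highest fold, 4 had a peak in standard serum: chr9:40155715-40156774, chr2:50820690-50821745, chr13:52849270-52850096 and chr2:178698230-178699048. The last of these had a fold of 35.7 at 24 h and no peak in GFP-high serum, while with lot 20100713 it had 85.9 at 24 h and 12.6 in standard serum. Among the 10 GFP-high-only regions with the highest fold, chr10:122498298-122499188 had a fold of 46.0 in GFP-high serum and none at 24 h, and with lot 20100713 it had 51.7 in standard serum, 15.0 at 24 h and 12.1 at 3 passages. The region chr7:96508338-96509255 had a fold of 52.3 in GFP-high serum and none at 24 h, yet 65.9 at 24 h with lot 20100713, 58.0 in TKO cells at 24 h and peaks in each Sox2 list. Among the same 10 were chr2:98506175-98507688, with a fold of 70.6 and a peak in no other list, and chr9:3023201-3023794, with 55.9, and both lie in parts of mm9 where many ChIP-seq libraries of unrelated targets pile up reads.

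Calling serum cells by the GFP-high list in place of the standard serum list changed what counted as a gain. Of the 21796 regions of the 24 h list, 8571 had no peak in standard serum, and 3552 of these, or 41.4% (40.4 to 42.5), had a peak in GFP-high serum. The other 5019 regions, 23.0% of the 24 h list, had no peak in either serum list. For comparison, 71.2% of all regions of the 24 h list had a GFP-high peak, and 90.5% of the 13225 with a standard serum peak had one. Another 1256 regions of the 24 h list had a peak in standard serum but none in GFP-high serum, so the exchange went both ways. The antibody lot differs between the 2 serum lists as well as the cells, so the choice of cells and the lot cannot be told apart here.

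The regions that the GFP-high list took out of the gains were unlike those that stayed. A 24 h Sox2 peak lay in 7.05% of the 24 h regions called in neither serum list, in 20.7% of those called in GFP-high serum but not in standard serum, in 23.4% of those called in standard serum alone and in 70.5% of those called in both. A serum Sox2 peak lay in 1.12%, 2.73%, 15.8% and 59.8% of the same 4 sets. Over all regions of the 24 h list the shares were 45.1% for the 24 h Sox2 list and 34.5% for the serum Sox2 list. The regions called in GFP-high serum but not in standard serum thus lay below the share over all in each list, at 20.7% and 2.73%. The 2 Sox2 lists have unlike thresholds, so their shares are not set against each other. A peak at 3 passages with lot 20100713 was found in 66.8% of the regions called in neither serum list and in 90.8% of those called in GFP-high serum alone. It was found in 92.3% of those called in standard serum alone and in 99.2% of those called in both. The share over all regions of the 24 h list was 89.98%, so the set called in neither serum list stood below it.

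Starting from the lists of lot 20100713, 20371 regions were gained between standard serum and 24 h, and GFP-high cells had a peak in 4786 of them, or 23.5% (22.9 to 24.1). The 24 h list of lot C01MG07 had a peak in 26.9% of these gains, and 62.1% were called in neither list of that lot. Of 4092 regions lost with lot 20100713, a peak was found in 6.55% at 24 h and in 27.5% in GFP-high serum. Of 21290 regions kept, a peak was found in 61.1% at 24 h and in 75.7% in GFP-high serum. The gains and the losses were thus each called less often than the regions kept, in both lists of lot C01MG07. The gains with a GFP-high peak were also stronger in their own list, with a median −log10 q of 39.4 at 24 h with lot 20100713, against 26.5 for the gains without one.

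Within the shared regions, strength was compared by rank, because the scales of fold enrichment and −log10 q may differ between lists. Each region was given its percentile among the 15521 shared regions in each list (100 is the highest −log10 q), and its shift was the percentile at 24 h minus that in GFP-high serum. Across regions the ranks had a Spearman rho of 0.61, and the shift had an SD of 25.5 points. This rho is over regions that share 2 libraries and is a description of those libraries. A shift up of 20 points or more at 24 h was seen in 3099 regions (20%) and a shift down of that size in 3128 (20.2%), while 479 moved up and 452 moved down by 50 points or more. At the top of the ranking, of the 1553 regions in the top 10% at 24 h, 920 were also in the top 10% in GFP-high serum. Regions shifted up had a median fold of 17.1 at 24 h and 9.56 in GFP-high serum, and regions shifted down had 8.91 at 24 h and 20.6 in GFP-high serum.

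**Figure D4:**
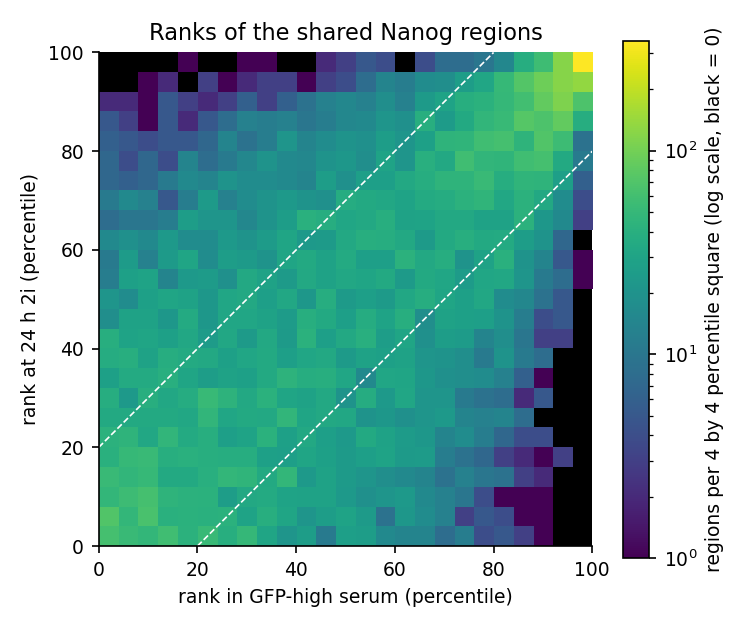
Percentile ranks of the 15521 shared Nanog regions at 24 h 2i (y axis) and in GFP-high serum (x axis), as the number of regions in each square (colour, log scale). Dashed lines mark shifts of 20 points, and the fullest square, with 346 regions, is the one at the top of both rankings.

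Peaks of each Sox2 list were more frequent at shared regions shifted down at 24 h than at those shifted up. A serum Sox2 peak lay in 22.5% (21.0 to 24.0) of the regions shifted up at 24 h and in 60.3% (58.6 to 62.0) of those shifted down, against 46.8% of all shared regions. For the 24 h Sox2 list the shares were 49.9% of regions shifted up and 61.1% of those shifted down, against 59.2% of all shared regions. For the Sox2 list of 3 passages they were 33.0% and 37.6%, against 42.0% of all shared regions. A serum Oct4 peak lay in 9.26% of regions shifted up and 23.3% of those shifted down, against 23.0% of all shared regions. For the 24 h Oct4 list the shares were 28.2% (26.6 to 29.8) and 28.6% (27.1 to 30.3), with overlapping intervals. Both were below the 35.2% of all shared regions. Serum H3K4me3 lay in 4.45% of regions shifted up and 8.44% of those shifted down, against 6.51% of all shared regions.

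The order of the serum Sox2 shares was the same in each of 3 equal groups of the shared regions by mean rank. In the upper group a serum Sox2 peak lay in 43.7% of regions shifted up and 83.6% of those shifted down, in the middle group in 22.0% and 65.3%, and in the lower group in 12.1% and 41.0%. The 24 h Sox2 list gave 82.2% of regions shifted up and 84.1% of those shifted down in the upper group, with overlapping intervals, and 29.9% and 43.3% in the lower group. The 24 h Oct4 list met 53.7% (49.5 to 57.9) of regions shifted up and 45.9% (41.8 to 50.1) of those shifted down in the upper group, while the serum Oct4 list met 20.1% of regions shifted up and 42.9% of those shifted down there. Over 10 equal bins of the shift, the serum Sox2 share was 66.4% in the bin with the largest shifts down, 58.9% in the fifth bin and 18.03% in the bin with the largest shifts up. Oct4 shares were highest in the middle of the shift, with a 24 h Oct4 peak in 48.6% of the sixth bin. Strong regions lay mostly there: 4057 of the 5174 regions of the upper group shifted by less than 20 points. Among those 4057 regions the 24 h Oct4 share was 64.3%. In the lower group it was 14.2% at shifts of less than 20 points, 16.3% in regions shifted up and 18.3% in those shifted down.

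**Figure D5:**
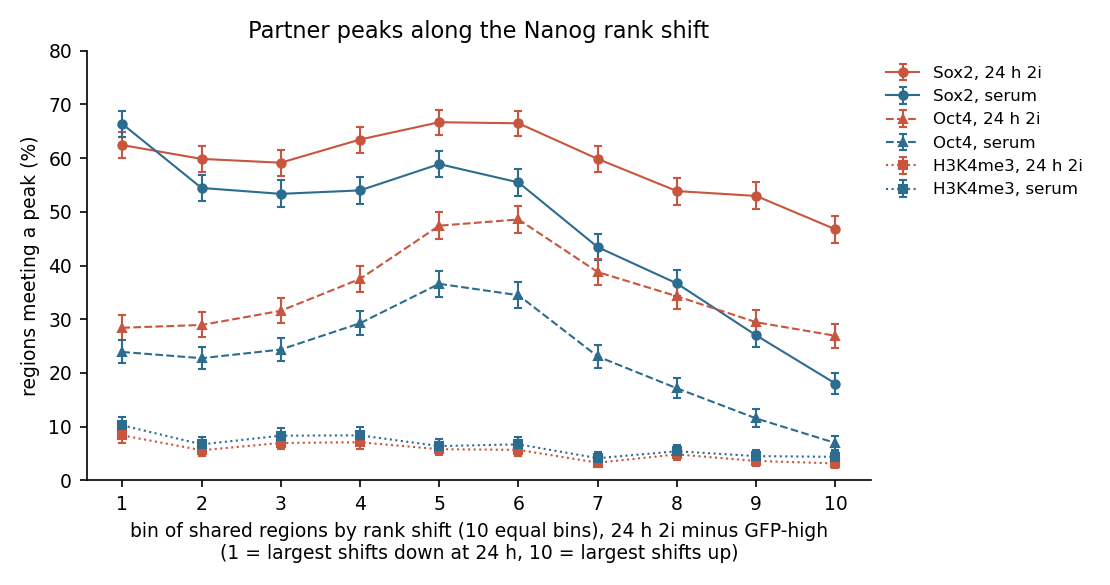
Share of shared Nanog regions holding a peak of Sox2, Oct4 or H3K4me3 (%, y axis) in 10 equal bins of the rank shift (x axis, 24 h 2i minus GFP-high serum), with exact 95% binomial intervals. The serum Sox2 line is at 18.03% in the bin with the largest shifts up at 24 h, against 66.4% in the bin with the largest shifts down, while the 24 h Sox2 line ends at 46.7%.

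Sox2 and Oct4 moved in rank with Nanog. Over the 6262 shared regions with a Sox2 peak at 24 h and in serum, the rank shift of Sox2 had a Spearman rho of 0.31 with that of Nanog, and Sox2 ranked higher at 24 h in 69.0% of the regions where Nanog shifted up and 31.2% of those where it shifted down. Over 3120 regions with Oct4 in both media the rho was 0.26, with Oct4 higher at 24 h in 63.7% and 38.4% of the regions where Nanog shifted up and down. Over 718 regions with H3K4me3 in both media the rho was -0.015. The Nanog shift itself had a rho of 0.45 with the shift from standard serum to 24 h of lot 20100713 over 11804 regions, where Nanog of that lot ranked higher at 24 h in 74.2% of the regions shifted up and 24.1% of those shifted down. The points of each rho are regions within the same few libraries, which may also share a control, since the labels list 1 whole-cell extract, so no p is given.

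The 5 largest shifts up were at chr7:73010410-73011149, chr4:126830100-126831324, chr13:104028762-104029386, chr13:112769888-112770852 and chr5:149170979-149171707. The chr7 region had a fold of 22.3 at 24 h and 4.68 in GFP-high serum, and an Oct4 peak at 24 h (fold 21.0) with none in serum. The chr13:104028762-104029386 region had a fold of 48.6 at 24 h and 8.50 in GFP-high serum, and with lot 20100713 it had 55.0 at 24 h and 10.8 in standard serum. None of the 5 held a serum Sox2 peak.

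The 5 largest shifts down were at chr12:92749975-92750757, chr10:127342466-127343887, chr6:122315764-122317058, chr4:108307581-108308400 and chr11:107213671-107214670. All 5 held a serum Sox2 peak, with folds between 7.86 and 21.7. The chr12 region had a fold of 5.60 at 24 h and 39.7 in GFP-high serum. The chr11 region had a fold of 6.44 at 24 h and 36.6 in GFP-high serum, with lot 20100713 it had 13.4 at 24 h and 42.7 in standard serum, and its serum Oct4 peak had a fold of 26.9, against 14.9 for the Oct4 peak at 24 h. The direction at chr10:127342466-127343887 was not the same in the other lot, where the fold was 36.1 at 24 h and 17.5 in standard serum.

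On X the part of the one-list regions that came from 24 h was smaller than on any autosome. Of the regions called in 1 list, 140 of 590 on X, or 23.7% (20.4 to 27.4), were of 24 h, against 37.2% (36.5 to 37.9) on all autosomes. On single autosomes the share ran between 34.2% on chromosome 1 and 44.0% on chromosome 19. X held 3.21% of the regions of the 24 h list and 3.84% of those of the GFP-high list. Among the 560 shared regions on X, 91 shifted up (16.25%) and 142 shifted down (25.4%), against 20.1% up and 19.96% down among the shared regions of the autosomes.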

How the data were processed

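ChIP-seq peak lists were analysed as deposited. Per the submitters' processing notes, the build was mm9 and the tools named were MACS2, BWA 0.5.7, Bowtie 0.12.7, TopHat, Cuffdiff and Cufflinks 2.2.1. Their roles and the controls are not given in the sources used here. Fold enrichment (a ratio) and the −log10 q-value of each peak are the authors', as deposited. A further deposited column gives the summit offset, in bp from the peak start. The peak lists carry no read counts, so the depth of each library is unknown. Both lists are selections from longer runs of peak numbers, up to 196764 at 24 h and 261962 in GFP-high serum, and their lowest −log10 q values were 23.2 at 24 h and 21.97 in GFP-high serum.

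Peaks on chromosomes 1 to 19 and X were merged at 1 bp overlap, and partner overlap needed 1 bp, with Python 3.11.15, pandas 2.3.3, numpy 2.4.6 and scipy 1.17.1. The code was tested on simulated lists. A region's rank used the highest −log10 q of its peaks. Positions are mm9, counted from 1, and regions were not assigned to genes because the annotation at hand is of another build. Named regions were the 10 of each one-list class with the highest fold, the 5 of each with the highest fold among those with the same direction in every list of lot 20100713, the 5 largest shifts each way, and the 5 shared regions with the highest mean rank; a few of each are described. The comparison, the lists and the rules were chosen with earlier results of these data known. The H3K27me3, whole-cell extract and RNA samples were not analysed here. Alternatives were lists of equal length, a common or a fixed minimum −log10 q, a 50% overlap, joining of peaks up to 1000 bp apart, ranking by fold and leaving out X.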

Additional observations from a re-analysis of the deposited data

Results flagged for a closer look

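The share of regions with a partner peak, taken as 24 h-only minus serum-only regions in percentage points, had one sign with lot C01MG07 (24 h 2i against GFP-high serum) and the other sign with lot 20100713 (24 h 2i against standard serum) for 6 of the 8 partner lists. This difference between the lots was not tested, since each lot has 1 list for each medium, and lot and choice of serum cells cannot be told apart. The longer list also changed sides. It was that of 24 h with lot 20100713 (41729 against 25513 peaks) and that of serum with lot C01MG07 (26415 against 21893). The lists of lot 20100713 held 2 samples each, against 1 for each list of lot C01MG07. What these differences add was not tested. For Sox2 at 24 h the value was -7.91 with lot C01MG07 and 5.59 with lot 20100713. For Sox2 at 3 passages it was -0.753 with lot C01MG07 and 2.60 with lot 20100713. For Oct4 at 24 h it was -1.29 with lot C01MG07 and 2.02 with lot 20100713. For H3K4me3 it was -3.36 and 3.20 with the serum list, -2.54 and 3.41 with the 24 h list, and -1.85 and 4.70 with the list of 3 passages, lot C01MG07 given before lot 20100713 each time. Sox2 in serum kept its sign, at -19.2 with lot C01MG07 and -12.9 with lot 20100713, as did Oct4 in serum, at -3.22 with lot C01MG07 and -3.03 with lot 20100713.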

How the results depend on the processing

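No difference between shares turned round. Counts and the shares of shifted regions carry no sign, so they could not turn round. Of 117 alternative values of 15 results, 94 stayed within 1.5 times (counts) or the counting interval (shares), and 23 moved. At equal list length there were 7486 GFP-high-only and 7449 24 h-only regions. Near-equal counts follow from equal lengths by arithmetic, so they cannot show what list length adds. Each of these counts still stayed within 1.5 times its main value. A minimum −log10 q of 50 in both lists, chosen after the data were seen, left 3308 24 h-only, 6237 GFP-high-only and 8977 shared regions, with 1521 of 2i direction and 230 of serum direction in both lots. Under it the 24 h-only minus GFP-high-only share, in percentage points, was -34.2 for serum Sox2, -14.5 for 24 h Sox2, -7.89 for serum Oct4, -2.80 for 24 h Oct4, -4.10 for serum H3K4me3 and -3.40 for 24 h H3K4me3, and the share at regions shifted up minus down was -33.9 for serum Sox2 and -16.7 for serum Oct4. With the longer list shortened to equal length, that class difference was -23.3 for serum Sox2, -9.90 for 24 h Sox2 and -4.24 for serum Oct4, and 505 regions had a serum direction in both lots. Ranking by fold gave -40.4 for serum Sox2 and -16.5 for serum Oct4 at regions shifted up minus down. Asking for the Nanog summit inside the partner peak, also chosen after the data were seen, gave -2.49 for serum and -1.76 for 24 h H3K4me3. The causes were not tested, beyond the shorter lists that the minimum of 50 and the equal length leave. A minimum of 20 removed no peak, so its values are among those that stayed by construction. No paired analysis was possible because each condition had 1 list. With no counts in the files, what depth limits could not be assessed.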
